A study of Mus musculus with 7 samples.

Results

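RGS proteins (regulators of G protein signalling) are described here in Beta-TC6, a mouse insulinoma line that makes and secretes insulin, through the transcripts of 10 genes: Rgs2, Rgs3, Rgs4, Rgs7, Rgs9, Rgs11, Rgs12, Rgs14, Rgs16 and Rgs17. All 10 symbols were found among the 23329 gene symbols of the count table. They were picked by name with the IL1B against vehicle results of these libraries already known, so their differences between the groups are given below as a description. Where a fit over all genes put one of them past its threshold, that is stated to describe it and is no independent evidence. The groups were wild-type Beta-TC6 cells given the inflammatory cytokine interleukin-1 beta (IL1B; 3 libraries) and wild-type cells of the line given vehicle (4 libraries). Cells of both groups had also received a 1 h pulse of 10 µM forskolin, which activates adenylyl cyclase and raises cAMP, to synchronise them. The line is a tumour line grown alone, so the groups model no islet with its other cells. The sources used here do not give the IL1B dose, the length of treatment or the time of harvest. The question the comparison addresses is which transcripts differed between beta cells with and without IL1B.

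A G protein-coupled receptor switches on a heterotrimeric G protein by loading its alpha subunit with GTP, and an RGS protein switches it off by speeding the hydrolysis of that GTP. Most RGS proteins act on the Gi/o and Gq classes of alpha subunit, and none of the classical ones on Gs, the class that raises cAMP. In beta cells Gi/o-coupled receptors restrain insulin secretion and Gq-coupled receptors promote it. The family is divided by structure into the R4 subfamily (here Rgs2, Rgs3, Rgs4 and Rgs16), mostly small proteins with little beyond the RGS domain; the R7 subfamily (Rgs7, Rgs9 and Rgs11), which bind the G beta 5 subunit; the R12 subfamily (Rgs12 and Rgs14), large scaffolds with a GoLoco motif that binds inactive Gi; and the RZ subfamily (Rgs17), named for its action on Gz.

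Libraries held 5335607 to 7513934 counts, of which 2390 to 3644 fell in the 10 genes. Levels are given as CPM (counts per 1e6 of a library's TMM-scaled total), and a level per length as CPM per kb of exon. Beta-cell markers were present: 8 of 8 were tested, with Ins2 at a mean of 21183 CPM in vehicle, while leukocyte markers summed to 4.08 to 4.85 CPM in vehicle and 4.55 to 5.68 CPM with IL1B, and the 7 exocrine and duct markers to 18.9 to 23.6 CPM and 20.2 to 21.9 CPM, mostly Spp1 (15.8 CPM in vehicle) and Krt7 (5.50 CPM), with the acinar genes Cpa1 and Prss2 at 0 counts. The 7 markers of other islet endocrine cells summed to 578 to 638 CPM in vehicle and 535 to 590 CPM with IL1B, mostly Gcg (311 CPM in vehicle) and Sst (288 CPM), and 1 of the 3 tested fell, Irx2 (log2 fold change -0.83, edgeR adjusted p = 0.00228). Stromal and endothelial markers summed to 4.83 to 8.46 CPM in vehicle and 5.39 to 7.65 CPM with IL1B. Of the 8 beta-cell markers 2 fell with IL1B by edgeR's quasi-likelihood test, Pdx1 (log2 fold change -0.56, adjusted p = 3e-07) and Mafa (-0.47, adjusted p = 7.01e-06), and 0 rose. At an unadjusted edgeR p under 0.05 there were 6, in both directions. Pdx1, Mafa and Nkx6-1 (log2 fold change -0.14) were lower, and Ins1 (0.11), Iapp (0.14) and Chga (0.17) higher. The summed level was 33720 to 39391 CPM in vehicle and 37617 to 39033 CPM with IL1B. In these bulk samples fewer cells of a type and less RNA per cell cannot be told apart, and the part of these marker levels in the RGS values was not tested. The second vehicle and second IL1B libraries stood apart from their groups: their counts differed from those of the other libraries of the group by a chi-square per degree of freedom of 2.90 to 4.93, against 1.53 to 1.72 among the others.

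Rgs9 was the most abundant of these transcripts per length and Rgs14 was not detected. In vehicle the order was Rgs9 (29.2 ± 2.65 CPM per kb, SD, n = 4), Rgs4 (12.2 ± 0.703), Rgs3 (9.39 ± 0.805), Rgs17 (5.35 ± 0.483), Rgs7 (3.93 ± 0.252), Rgs2 (3.75 ± 0.663), Rgs12 (3.68 ± 0.566), Rgs11 (1.35 ± 0.271) and Rgs16 (0.531 ± 0.193). The library ranges of neighbours in this order did not overlap, except that Rgs7, Rgs2 and Rgs12 could not be ordered beyond their spread. Lengths here are the union of annotated exons. With the longest annotated transcript as the length, Rgs9 stayed in front (53.8 CPM per kb), Rgs3 (21.6) passed Rgs4 (12.9), and Rgs17 moved from place 4 to 6. With IL1B the places of the last detected pair changed over: Rgs16 (1.53 ± 0.0830 CPM per kb, n = 3) lay above Rgs11 (0.877 ± 0.144). Their IL1B ranges did not overlap by exon union, and did overlap by longest transcript (1.43 to 1.59 for Rgs16, 1.19 to 1.62 for Rgs11). By exon union Rgs12 (3.29 ± 0.0718 CPM per kb) also passed Rgs2 (2.66 ± 0.363) with IL1B. By longest transcript the mean of Rgs12 was above that of Rgs2 in both groups.

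**Figure D1:**
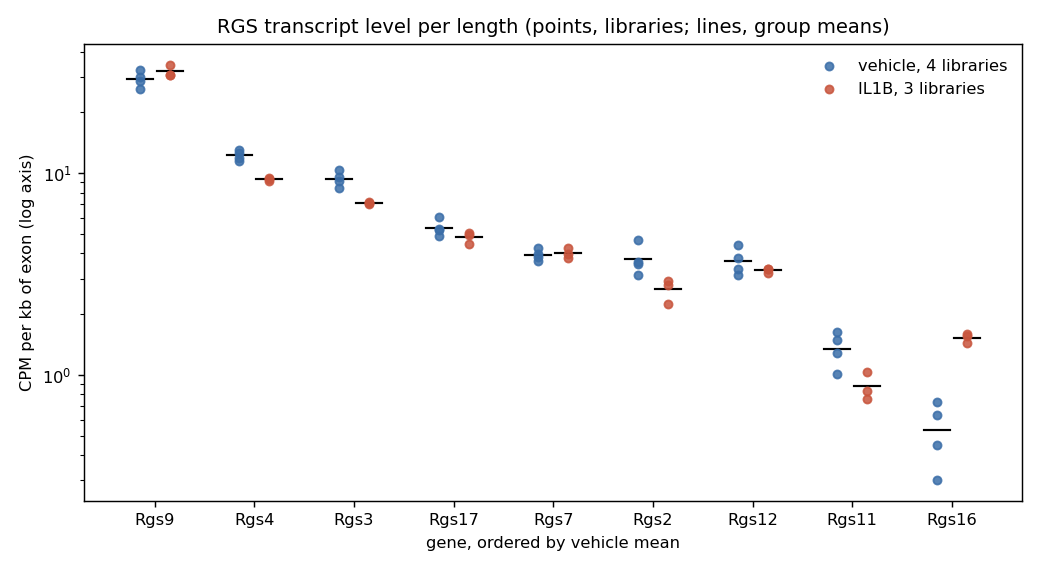
Level of each detected RGS transcript in CPM per kb of exon (log axis), ordered by the vehicle mean; points are libraries, 4 vehicle and 3 IL1B, and lines are group means. Rgs9 stands above all others in both groups, and Rgs16, lowest in vehicle, lies above Rgs11 with IL1B.

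Among the genes described here, picked with this comparison known, those whose groups separated were R4 genes. The groups did not overlap in 21.0% of all tested genes. They overlapped for Rgs8, a tested R4 gene not among those picked (5.82 to 8.54 CPM in vehicle, 4.89 to 6.85 CPM with IL1B). Rgs16 was higher in every IL1B library than in every vehicle library, and Rgs2, Rgs3 and Rgs4 were lower in every IL1B library.

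Rgs16 (chromosome 1, 153740349 to 153745468, plus strand), which encodes a small Gi/o and Gq regulator, stood at 1.05, 1.72, 0.705 and 1.49 CPM in vehicle libraries 1 to 4 and at 3.35, 3.66 and 3.71 CPM in IL1B libraries 1 to 3. The lowest IL1B library was above the highest vehicle library. The IL1B libraries held 23, 22 and 22 reads of it, too few for their closeness to show how well the libraries agree. The fitted difference was 2.85-fold (log2 fold change 1.51, SE 0.31). These levels rest on few reads, 31 in vehicle and 67 with IL1B, which give a depth-scaled ratio of 2.88 with a 95% counting interval of 1.85 to 4.56. Rgs16 passed the low-count filter through its IL1B libraries, so it could not have been called lower. An antisense gene model, Gm28513, overlaps up to 236 bases of one of its exons, and the strand setting of the counting is not given.

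Rgs4 (chromosome 1, 169741477 to 169747642, minus strand), a regulator of Gi/o and Gq that dampens muscarinic receptor signalling in beta cells, stood at 40.4, 38.8, 36.8 and 35.5 CPM in the 4 vehicle libraries and at 29.4, 28.3 and 28.8 CPM in the 3 IL1B libraries. Every IL1B library was below every vehicle library, and the group spreads were small. The fitted log2 fold change was -0.40 (SE 0.09), which is 1.32-fold lower.

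Rgs3 (chromosome 4, 62559847 to 62704001, plus strand) has several isoforms with different first exons, which counts per gene do not separate. It stood at 103, 99.0, 91.1 and 112 CPM in vehicle and at 76.6, 77.6 and 75.9 CPM with IL1B. The vehicle libraries were the more scattered, and all were above the IL1B libraries. The fitted log2 fold change was -0.40 (SE 0.07), 1.32-fold lower, nearly the same size as for Rgs4.

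Rgs2 (chromosome 1, 143999338 to 144004161, minus strand), a regulator with preference for Gq, stood at 17.0, 12.8, 13.2 and 11.3 CPM in vehicle and at 10.6, 8.15 and 10.1 CPM with IL1B. The groups did not overlap, but vehicle library 4 and IL1B library 1 were only a little apart, and vehicle library 1 was the highest. The fitted log2 fold change was -0.51 (SE 0.16), 1.42-fold lower. Its place past the threshold depended on the setting: it was past it in the full fit, and not with DESeq2 or limma-voom, nor when vehicle library 1 or 3 or any IL1B library was left out, nor without the second libraries of both groups, where log2 fold changes ran from -0.59 to -0.37.

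**Figure D2:**
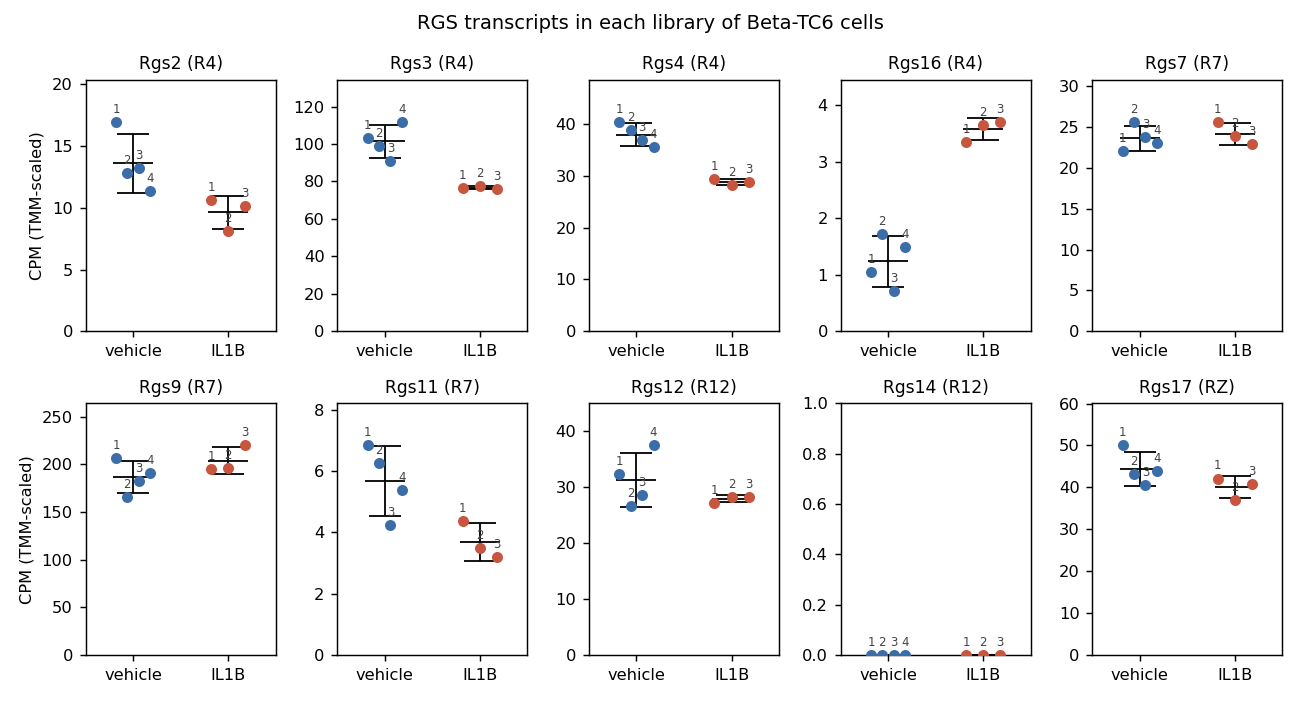
CPM of each of the 10 genes in every library (points, numbered as in the count table), with group means and SD (bars); each vertical axis starts at 0. The IL1B points lie above all vehicle points for Rgs16 and below all of them for Rgs2, Rgs3 and Rgs4, and Rgs14 is at 0 throughout.

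Start-site sequences are printed for Rgs16, which differed one way, and for Rgs2 and Rgs4, which differed the other. Rgs3, also lower with IL1B, is not printed. RefSeq windows of 250 bases before the start (build GRCm38.p6) were found for 8 of the 10 genes, 10 windows in all; Rgs11 and Rgs14 had none. The stretches below are printed 5′ to 3′ on the gene's strand, ending before the first annotated base of the gene, with capitals marking TGACG or its reverse complement CGTCA, the core of the cAMP response element.
Rgs16, chr1:153740103-153740348, plus strand: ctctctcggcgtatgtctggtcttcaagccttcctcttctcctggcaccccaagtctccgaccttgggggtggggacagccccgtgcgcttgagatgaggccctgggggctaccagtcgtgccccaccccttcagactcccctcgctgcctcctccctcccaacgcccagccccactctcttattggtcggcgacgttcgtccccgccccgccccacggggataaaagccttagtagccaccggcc
Rgs4, chr1:169747643-169747892, minus strand: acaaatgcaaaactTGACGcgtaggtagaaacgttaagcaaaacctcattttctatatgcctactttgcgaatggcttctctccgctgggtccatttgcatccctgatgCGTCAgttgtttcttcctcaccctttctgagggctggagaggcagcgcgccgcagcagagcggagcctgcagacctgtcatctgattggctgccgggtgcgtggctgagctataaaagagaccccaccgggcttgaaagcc
Rgs2, chr1:144004162-144004399, minus strand: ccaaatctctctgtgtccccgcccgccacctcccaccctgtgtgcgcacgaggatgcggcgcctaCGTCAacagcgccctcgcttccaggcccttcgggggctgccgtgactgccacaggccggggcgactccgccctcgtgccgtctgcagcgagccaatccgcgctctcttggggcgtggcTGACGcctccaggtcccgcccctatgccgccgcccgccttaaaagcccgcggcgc

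The core TGACG, searched on both strands, lay 236 and 141 bases before the Rgs4 start and 185 and 67 bases before the Rgs2 start, and the Rgs16 window held none. Distances are counted from the RefSeq start, and the printed Rgs2 and Rgs16 stretches stop 12 and 4 bases short of it, where the GENCODE gene begins. Of the 8 genes with a window 3 held it: Rgs2, Rgs4 and Rgs12, the last 82 bases before the start of its second window. Rgs3, lower with IL1B, held none in either of its windows, and the groups overlapped for Rgs12, which held the core. Among the 27025 genes of the RefSeq windows 19.8% held the core. The full palindrome TGACGTCA, which contains the core, was in none of the 8 genes and in 1.77% of all genes. An NF-kB motif (GGG, any 3 bases, then TTCC), searched on both strands, was in none of the 8 genes, Rgs16 included, and in 5.31% of all genes. The E-box CACGTG, bound by clock factors, was in the window of Rgs7, 29 bases before the start, and in 6.86% of all genes. These matches describe letters in the windows only.

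Among the R7 genes the groups overlapped. Rgs9 (chromosome 11, 109225355 to 109298129, minus strand), best known from photoreceptors and the striatum, stood at 206, 166, 182 and 191 CPM in vehicle and at 195, 196 and 219.8 CPM with IL1B. The lowest value was that of the second vehicle library, and the highest that of IL1B library 3. The fitted log2 fold change was 0.13 (SE 0.07), and over the alternatives it ran from 0.07 (without IL1B library 3) to 0.18 (without vehicle library 1). Rgs7 (chromosome 1, 175059087 to 175492500, minus strand), a neuronal regulator of Gi/o, stood at 22.1, 25.7, 23.8 and 23.0 CPM in vehicle and at 25.6, 23.9 and 22.9 CPM with IL1B. Its values were fully mixed between the groups (log2 fold change 0.04, SE 0.10).

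Rgs11 (chromosome 17, 26202951 to 26211324, plus strand) acts in retinal ON-bipolar cells together with Rgs7. It stood at 6.85, 6.26, 4.23 and 5.38 CPM in vehicle and at 4.37, 3.49 and 3.21 CPM with IL1B. Vehicle library 3 lay below IL1B library 1, and the other vehicle libraries were above all IL1B libraries. The fitted log2 fold change was -0.63 (SE 0.22), the largest decrease among the 10 genes, on 145 vehicle and 70 IL1B counts. It was not past the threshold in the full fit and was past it without vehicle library 3 (log2 fold change -0.74). The opposite-strand gene Arhgdig shares up to 138 bases of an exon with it; Arhgdig had 248 counts in the vehicle and 248 in the IL1B libraries.

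In the R12 and RZ subfamilies no gene separated the groups. Rgs12 (chromosome 5, 34949445 to 35039644, plus strand), a scaffold that also binds Ras and receptor tails, stood at 32.4, 26.6, 28.6 and 37.5 CPM in vehicle and at 27.2, 28.3 and 28.3 CPM with IL1B (log2 fold change -0.16, SE 0.11). The vehicle libraries spread on both sides of the IL1B libraries, and an antisense model, Gm43791, overlaps up to 295 bases of an exon. Rgs14 (chromosome 13, 55369732 to 55384687, plus strand), known from hippocampal neurons, had no count in any library, which allows up to 3 counts per library, or 0.399 to 0.562 counts per 1e6. Rgs17 (chromosome 10, 5825663 to 5922400, minus strand) stood at 50.02, 43.2, 40.5 and 43.8 CPM in vehicle and at 42.1, 37.1 and 40.8 CPM with IL1B (log2 fold change -0.15, SE 0.09). Vehicle library 1 was its highest value, and the other libraries overlapped.

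Counted over the 10 genes, 9 passed the low-count filter, 1 lay past the threshold upward (Rgs16) and 3 downward (Rgs2, Rgs3 and Rgs4). A gene counted as called where edgeR's quasi-likelihood test, fitted on all genes, gave a p under 0.05 after Benjamini-Hochberg adjustment. Over all 12480 tested genes 11.0% were called, 7.76% upward and 3.25% downward. The groups did not overlap in 4 of the 10 genes, with IL1B above in 1 and below in 3, and in 21.0% of all tested genes (above in 12.1%, below in 8.83%). Since the genes were chosen with this comparison known, nothing is read from these shares. Of all called genes 70.5% were upward, and 60.3% with total-count scaling, where the counts of the 10 genes were the same. The median log2 fold change was -0.16 over the 9 genes and -0.0087 over all tested genes. The differences were small beside that of Rgs16: 2 of the 9, Rgs16 and Rgs11, reached 1.5-fold.

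**Figure D3:**
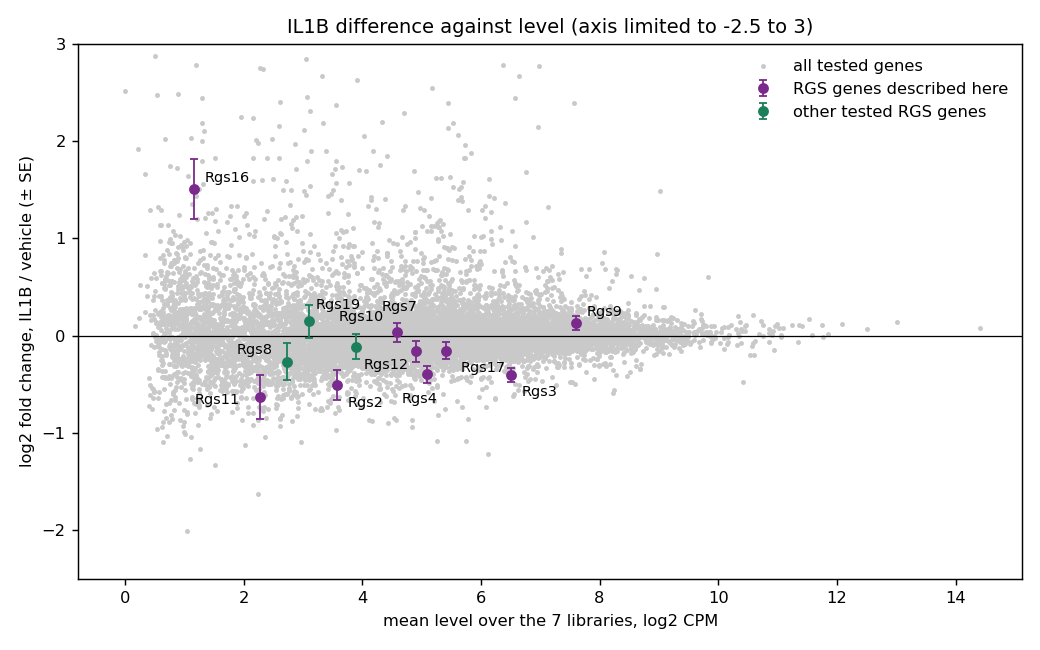
Fitted log2 fold change of IL1B against vehicle (± SE for RGS genes) over the mean level of all 7 libraries in log2 CPM, for all tested genes (grey, 46 of them outside the plotted range of -2.5 to 3), the RGS genes described here (purple) and other tested RGS genes (green). Rgs16 is the highest of the RGS genes and has the lowest level, while Rgs2, Rgs3, Rgs4 and Rgs11 lie below 0.

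Per length, R4 genes made up less of the summed level of these 10 genes with IL1B than in vehicle, and R7 genes more. Summed over the 10 genes in CPM per kb, R4 genes took 37.4 ± 1.34% in vehicle (SD, n = 4) and 31.5 ± 0.889% with IL1B (n = 3), and R7 genes 49.6 ± 1.15% and 56.1 ± 1.16%. Rgs9 alone took 42.0 ± 1.82% and 48.6 ± 1.86%, so it was the largest part in both groups. Rgs16 took 0.769 ± 0.297% and 2.33 ± 0.132%, and Rgs2 5.39 ± 0.733% and 4.05 ± 0.484%. The larger share of Rgs16 was too little to offset the lower Rgs2, Rgs3 and Rgs4 within the R4 sum. By longest transcript the shares were 35.0% and 28.7% for R4 and 55.2% and 62.0% for R7. These shares use the same comparison by which the genes were chosen and are a description. Other detected RGS genes, such as Rgs8 (R4), Rgs10 and Rgs19, are outside the sum. A smaller R4 share by itself raises the other shares, and the groups overlapped for each R7 gene.

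The other RGS genes gave no call. Of 12 further RGS genes listed, 11 were in the table and 3 passed the filter: Rgs8 (R4; 7.16 ± 1.11 CPM in vehicle, 5.91 ± 0.980 with IL1B, edgeR adjusted p = 0.444), Rgs10 (R12; 15.4 ± 2.02 and 14.3 ± 0.925, adjusted p = 0.673) and Rgs19 (RZ; 8.20 ± 1.59 and 9.05 ± 1.04, adjusted p = 0.676). All 3 missed the threshold with each of edgeR, DESeq2 and limma-voom, and 0 had an unadjusted edgeR p under 0.05. With 11.0% of all tested genes called by edgeR, no call among 3 genes says little. Rgs6 and Rgs18 had no count in any library. Rgs1 and Rgs13 had 1 count each over all libraries, Rgs22 and Rgsl1 5 each, Rgs5 30 and Rgs20 45.

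Many RGS genes lie in clusters, and several cluster neighbours of the genes above had few or no counts. The counts in this paragraph are not scaled by length. Of 22 RGS genes with a gene model (GENCODE M21, GRCm38) 12 are on chromosome 1. Rgs8, which did not pass the threshold, ends 40025 bases before Rgs16, and Rgsl1, with 5 counts, follows Rgs16 after 33912 bases. Rgs8 had 291 counts and Rgs16 98, and their levels per length were not compared. Rgs4 had 1498 counts over the 7 libraries, and Rgs5, whose gene ends 45663 bases away, had 30. Rgs2 had 529 counts, and its cluster neighbours Rgs13, Rgs1 and Rgs18 had 1, 1 and 0.

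The partners of RGS proteins showed no call either. Gnb5, the G beta 5 subunit that R7 proteins need for stability, was at 18.1 ± 2.75 CPM in vehicle and 17.0 ± 3.01 CPM with IL1B (edgeR adjusted p = 0.762). Rgs7bp, the membrane anchor of R7 complexes, was at 37.5 ± 3.76 and 31.1 ± 3.69 CPM (adjusted p = 0.113), and Gpr158, an orphan receptor that binds Rgs7, at 60.2 ± 2.16 and 56.8 ± 2.73 CPM (adjusted p = 0.553). These 3 are named for their role beside the R7 genes, after their values were seen. Of 7 tested partners and GoLoco proteins 0 were called by edgeR, DESeq2 or limma-voom, and 1 had an unadjusted edgeR p under 0.05, Rgs7bp. Since edgeR called 11.0% of all tested genes, no call in a list this short says little.

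Among the subunits and effectors of the pathway, arrestins, a receptor kinase, Gnaz and several phosphodiesterases rose. The lists were drawn up by role, with earlier results of these data known, so their counts and p-values are no independent evidence. Of 103 tested genes in 11 lists, the RGS and partner lists above included, 10 rose and 7 fell, 16.5% against 11.0% of all tested genes. With total-count scaling 10 rose and 11 fell (47.6% upward against 58.8%).

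Of 12 tested G alpha genes 2 rose and 0 fell, where edgeR called 7.76% of all tested genes higher and 3.25% lower. Gnaz, which encodes Gz, a substrate of Rgs17, Rgs19 and Rgs20, was at 27.6 ± 2.04 CPM in vehicle (n = 4) and 46.8 ± 4.54 CPM with IL1B (n = 3), a log2 fold change of 0.76 with SE 0.09 (adjusted p = 6.01e-06, edgeR). Gna13 rose 1.18-fold (edgeR adjusted p = 0.013), and its call was lost without vehicle library 4 or IL1B library 1 (adjusted p 0.0536 and 0.0588). No G alpha gene fell by edgeR, DESeq2 or limma-voom over all 7 libraries. Without the second libraries of both groups Gnai3 fell (named after its value was seen; log2 fold change -0.12, edgeR adjusted p = 0.0478). Of 10 G beta and gamma genes Gng4 rose 1.21-fold (edgeR adjusted p = 0.00445) and Gng12 fell 1.14-fold (adjusted p = 0.045), a call lost without any one of vehicle libraries 1, 3 and 4 and IL1B libraries 2 and 3 (adjusted p 0.0871 to 0.211).

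Receptor kinases phosphorylate active receptors and arrestins then bind and uncouple them, a second way of ending the signal. Of 7 tested genes 3 rose and 0 fell by edgeR, DESeq2 and limma-voom, and the 3 with an unadjusted edgeR p under 0.05 were those that rose. Over all tested genes edgeR called 7.76% higher and 3.25% lower. Arrb1 (beta-arrestin 1) went from 30.5 ± 3.48 to 62.9 ± 5.37 CPM (2.06-fold, SE 0.09 on the log2 scale, adjusted p = 8.48e-08 by edgeR). Grk5, a receptor kinase, went from 17.2 ± 2.09 to 32.9 ± 1.21 CPM (1.93-fold, edgeR adjusted p = 1.62e-06), and Arrb2 from 39.1 ± 1.92 to 52.6 ± 3.94 CPM (1.34-fold, adjusted p = 0.00111). In all 3 genes every IL1B library was above every vehicle library.

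In the cAMP arm 4 of 26 tested genes rose and 1 fell, 19.2% called against 11.0% of all tested genes. All 5 encode phosphodiesterases, which break down cyclic nucleotides. Phosphodiesterase genes make up a large part of the tested list, so little is read from their being of 1 class. Pde4b rose 1.39-fold (edgeR adjusted p = 2.62e-05), Pde3b 1.33-fold (adjusted p = 0.000135), Pde1c 1.22-fold (adjusted p = 0.00487) and Pde7b 1.52-fold (adjusted p = 0.00881; 0.0672 with DESeq2). The gene that fell, Pde10a (named after its value was seen), went from 83.6 ± 10.02 to 65.7 ± 6.43 CPM (edgeR adjusted p = 0.0177). That call was lost when vehicle library 3, vehicle library 4 or IL1B library 3 was dropped (adjusted p 0.0534 to 0.131). With total-count scaling or without the second vehicle library 4 genes of the arm fell, and 5 without the second libraries of both groups. No adenylyl cyclase gene was called in the full fit.

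In the Gq arm 0 of 13 tested genes were called by edgeR, DESeq2 or limma-voom, with 2 at an unadjusted edgeR p under 0.05; without the second vehicle library Prkca fell (named after its value was seen; log2 fold change -0.20, edgeR adjusted p = 0.0335), and also without both second libraries (adjusted p = 0.0484). Of the GIRK channel genes, whose products open on G beta-gamma, only Kcnj6 passed the filter and it was not called by the same 3 tools, or at an unadjusted p under 0.05. Beside the 11.0% of all tested genes called by edgeR, no call in lists this short says little.

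The 5 receptor genes that passed the threshold in the full fit were lower with IL1B. Of 10 tested Gi-coupled receptors 3 fell and 0 rose by edgeR, DESeq2 and limma-voom. Over all tested genes edgeR called 3.25% lower and 7.76% higher. Galr1, the galanin receptor, went from 68.2 ± 2.79 to 37.6 ± 4.05 CPM, a log2 fold change of -0.86 with SE 0.08 (adjusted p = 3.1e-07, edgeR). Cnr1, the cannabinoid receptor, went from 57.7 ± 2.88 to 36.3 ± 4.24 CPM (log2 fold change -0.67, edgeR adjusted p = 1.85e-05). Sstr3, a somatostatin receptor, fell 1.18-fold (adjusted p = 0.0192) and lost its call without vehicle library 3 or IL1B library 1 or 3 (adjusted p 0.0588 to 0.107). Of 4 Gi-coupled genes at an unadjusted edgeR p under 0.05, 3 were these. The Gq-coupled fatty acid receptor Ffar1 and the Gs-coupled incretin receptor Glp1r were the other 2 called, Ffar1 1 of 7 Gq-coupled and Glp1r 1 of 7 Gs-coupled genes. Ffar1 went from 35.4 to 19.3 CPM (log2 fold change -0.87, adjusted p = 5.14e-06 by edgeR) and kept its call in all 15 alternatives. Glp1r (log2 fold change -0.34, edgeR adjusted p = 0.0256) was no longer called when vehicle library 1 or 4, or IL1B library 1 or 3, was dropped (adjusted p 0.095 to 0.143). With limma-voom, and with 3 other settings, the Gs-coupled Adora2b (named after its value was seen) was called higher (limma-voom adjusted p = 0.0422). The Gq-coupled P2ry1 (named after its value was seen) was not called in the full fit (edgeR adjusted p = 0.0528). It was called lower with total-count or upper-quartile scaling, and without the second vehicle library or both second libraries. The edgeR adjusted p of P2ry1 in these settings ran from 0.0233 to 0.0274. Ptger4, a Gs-coupled prostaglandin receptor, lay below the main low-count filter (named after its value was seen). With a filter of 1 CPM in 3 libraries it was called higher (log2 fold change 1.55, edgeR adjusted p = 0.0402). It was not called without a filter (edgeR adjusted p = 0.06) or with DESeq2 (adjusted p = 0.212). A gene that passes a filter through its IL1B libraries alone could not have been called lower. Which libraries carried Ptger4 past that filter was not examined, so nothing is read from its call.

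**Figure D4:**
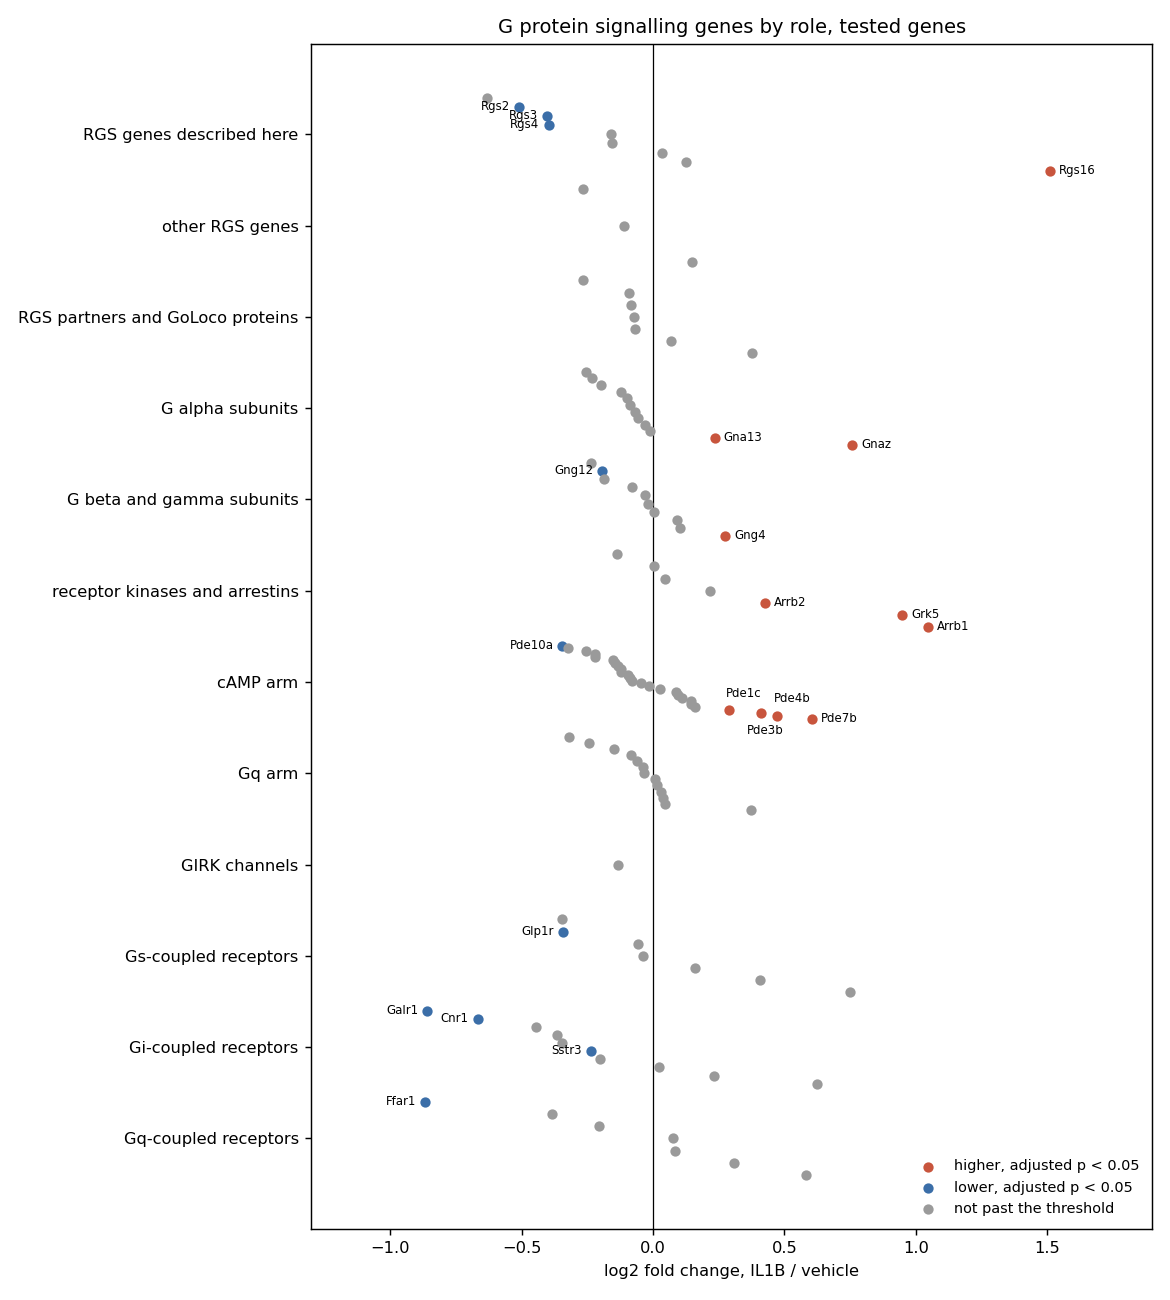
Log2 fold change of IL1B against vehicle for every tested gene of the RGS genes described here and of 11 lists of G protein signalling genes; each point is a gene, spread vertically by rank, coloured by whether it passed an edgeR adjusted p of 0.05. Named points passed. To the right lie Rgs16, the arrestins, Grk5, Gnaz, Gna13, Gng4 and 4 phosphodiesterases. To the left lie Rgs2, Rgs3, Rgs4, the called receptors, the phosphodiesterase Pde10a and Gng12.

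The genes whose pattern over the 7 libraries was most like that of Rgs16, the largest increase, were Gm13889 (Pearson r 0.989 of log2 CPM), Ninj1 (0.988) and 5730403B10Rik (0.987), out of 10902 genes of at least 5 CPM. For Rgs11, the largest decrease, they were Cpt1a (0.973), Dcp1b (0.968) and Mppe1 (0.966). The libraries share their grouping by treatment and their depth, so these values are a description of likeness over 7 points.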

How the data were processed

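RNA of 7 Beta-TC6 libraries was measured (IL1B, n = 3; vehicle, n = 4). The authors deposited 1 table of raw counts, whole numbers per gene symbol; build mm10 and, without roles, STAR, RSEM, HOMER, Bowtie2, DESeq2 and R 4.1.0 are named per the submitters' processing notes. Aligner, counter, annotation, strand setting and handling of multi-mapping reads for these counts are not stated in the sources used here. No RGS gene shares over 30% of its longest transcript at 95% identity with another gene (blastn 2.17.0, GENCODE M21). No label says that libraries of a group came from different cultures; p-values therefore reflect the spread among these libraries alone, which may be technical; no pair agreed within sampling noise. The table numbers IL1B libraries 1 to 3 and the titles 1, 3 and 4, so these columns were assigned to the group only, under the table's numbers.

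From the counts, edgeR 4.0.16 (R 4.3.3) was run with filterByExpr (minimum count 10), TMM scaling, a quasi-likelihood test between the groups and Benjamini-Hochberg adjustment over 12480 genes, tested on simulated data. SE was taken as |log2 fold change| divided by √F. Log2 CPM for likeness used a prior count of 2. Floors (3 counts) and intervals cover counting error only. Alternatives tried were total-count, RLE and upper-quartile scaling, no filter, 1 CPM in 3 libraries, DESeq2 1.42.0, limma-voom (limma 3.58.1), each library left out and, added after seeing the data, both second libraries left out. The genes and lists were chosen with earlier results of these data known. Named were the 10 genes, the other RGS genes, up to 4 called genes per list by adjusted p, and 3 most alike genes. Adrbk1, Adrbk2 and Emr1 stood for Grk2, Grk3 and Adgre1.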

Additional observations from a re-analysis of the deposited data

How the results depend on the processing

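The log2 fold changes of the 9 tested RGS genes moved by less than the SD of single libraries in all 135 values over 15 alternatives. Leaving out a single library can hardly move a group mean by that much, so nothing is read from this count. None of these genes that was called changed sign. Calls differed for Rgs2 (lost in 8) and Rgs11 (gained in 1), so 2 or 3 of the 10 genes were called lower and 1 higher throughout. Over all genes, 968 higher and 406 lower calls became 260 lower with DESeq2 and 676 lower without both second libraries, and 252 to 589 lower (769 to 1128 higher) with each library left out; 252 was without IL1B library 3. For the G protein signalling lists, 7 lower calls became 11 with total-count scaling, 14 without both second libraries, and 3 to 12 with each library left out: 12 without vehicle library 2, 4 without vehicle library 3 or 4, and 3 without IL1B library 3. The cause of these shifts was not tested. Across the scalings, the median over all tested genes lay between -0.041 and -0.0087 (log2). Using the longest transcript moved the places of 6 of the 10 genes by level per length, and total-count scaling moved none. No paired analysis was possible because the IL1B columns, numbered unlike the sample titles, could not be matched to numbered samples, and a block on the column numbers alone was not fitted. Depth limits Rgs16, Rgs11 and Rgs14 most.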
